A study of Drosophila melanogaster with 19 samples.

Results

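C2 is a centrifugal neuron of the optic lobe, where the fly brain processes vision, and was compared here with the other 16 single cell types of a series of sorted neurons from adult Drosophila melanogaster aged 3 to 6 days. It was chosen by its cell type label, and it is 1 of 19 samples, with 3 of the 57 libraries. Each group came from a cross of a cell-type Gal4 line to UAS-Red Stinger, a red protein of the nucleus, and labelled cells of dissected brains were sorted by fluorescence before total RNA was extracted. C2 was set against the mean of Tm9, Tm5c, Tm5ab, Tm3, Tm2, T5, T3, T2, T1, Mi1, C3, Dm8, Dm2, Dm12, Lawf2 and Lawf1, each with 3 libraries. C3, the other centrifugal C type, was also used singly, and sorted neurons of all kinds are given as a level beside the test. A sample labelled as T1 and Tm1 together entered the fit but no comparison. The Gal4 line used for each type, the sex and any pooling of the flies behind a library were not given in the sources used here, and each type is represented by the cells that its line labels.

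C2 cells branch in the medulla and send an axon outwards to the lamina, against the main flow of visual signals. They release GABA, which Gad1 makes from glutamate and VGAT loads into vesicles, and which opens chloride channels such as Rdl or acts through GABA-B receptors. Photoreceptors release histamine, many lamina and medulla neurons release acetylcholine or glutamate, and amines and peptides tune their responses.

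The label was checked against Gad1 and the other genes named as C2 markers, which were chosen with earlier results of these data known. Gad1 was at 3443, 4063 and 4239 CPM (CPM is the read count scaled to the library's total in genes and its TMM factor) in the C2 libraries, against 15071, 10792 and 13979 CPM in the C3 libraries and a median of 5.02 CPM over the means of the other 16 types. C2 and C3 stood apart from the remaining types, of which T2 was highest with 148 ± 68.9 CPM. The error of a level is the SD over n = 3 libraries throughout, and that of a log2 fold change its standard error. VGAT averaged 244 ± 20.1 CPM in C2, against 369 ± 33.6 CPM in C3 and a median of 92.4 CPM over the 16 types.

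CG17777, a gene without a described role, was at 3792, 3992 and 3305 CPM in the C2 libraries, against a median of 0.528 CPM over the other types and 62.2 CPM in T2. No library of another type came near C2, and sorted neurons had 0.34 CPM. Hey, a basic helix-loop-helix factor switched on by Notch, was at 969, 836 and 938 CPM in C2, against a median of 29.5 CPM and 247 CPM in Dm2. Its C2 libraries lay above every library of the other types. Sorted neurons had 0.815 CPM, below the mean of every single type, of which T1 was lowest with 2.37 CPM. Of the 62 tested genes with at least 20 CPM in C2 and under 1 CPM in sorted neurons, 35 had a median above 1 CPM over the other 16 types. A low level in sorted neurons therefore does not by itself set C2 apart. 5-HT1A, a serotonin receptor that lowers cyclic AMP, was at 1221, 1271 and 1334 CPM in C2, against a median of 55.6 CPM. T1 was close behind, with 1069.6 ± 72 CPM, and the 3 C2 libraries were still above those of T1. shakB, an innexin of electrical synapses, was at 1691, 1716 and 1935 CPM in C2, against a median of 334 CPM and 889 CPM in Lawf2, again without overlap.

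**Figure D1:**
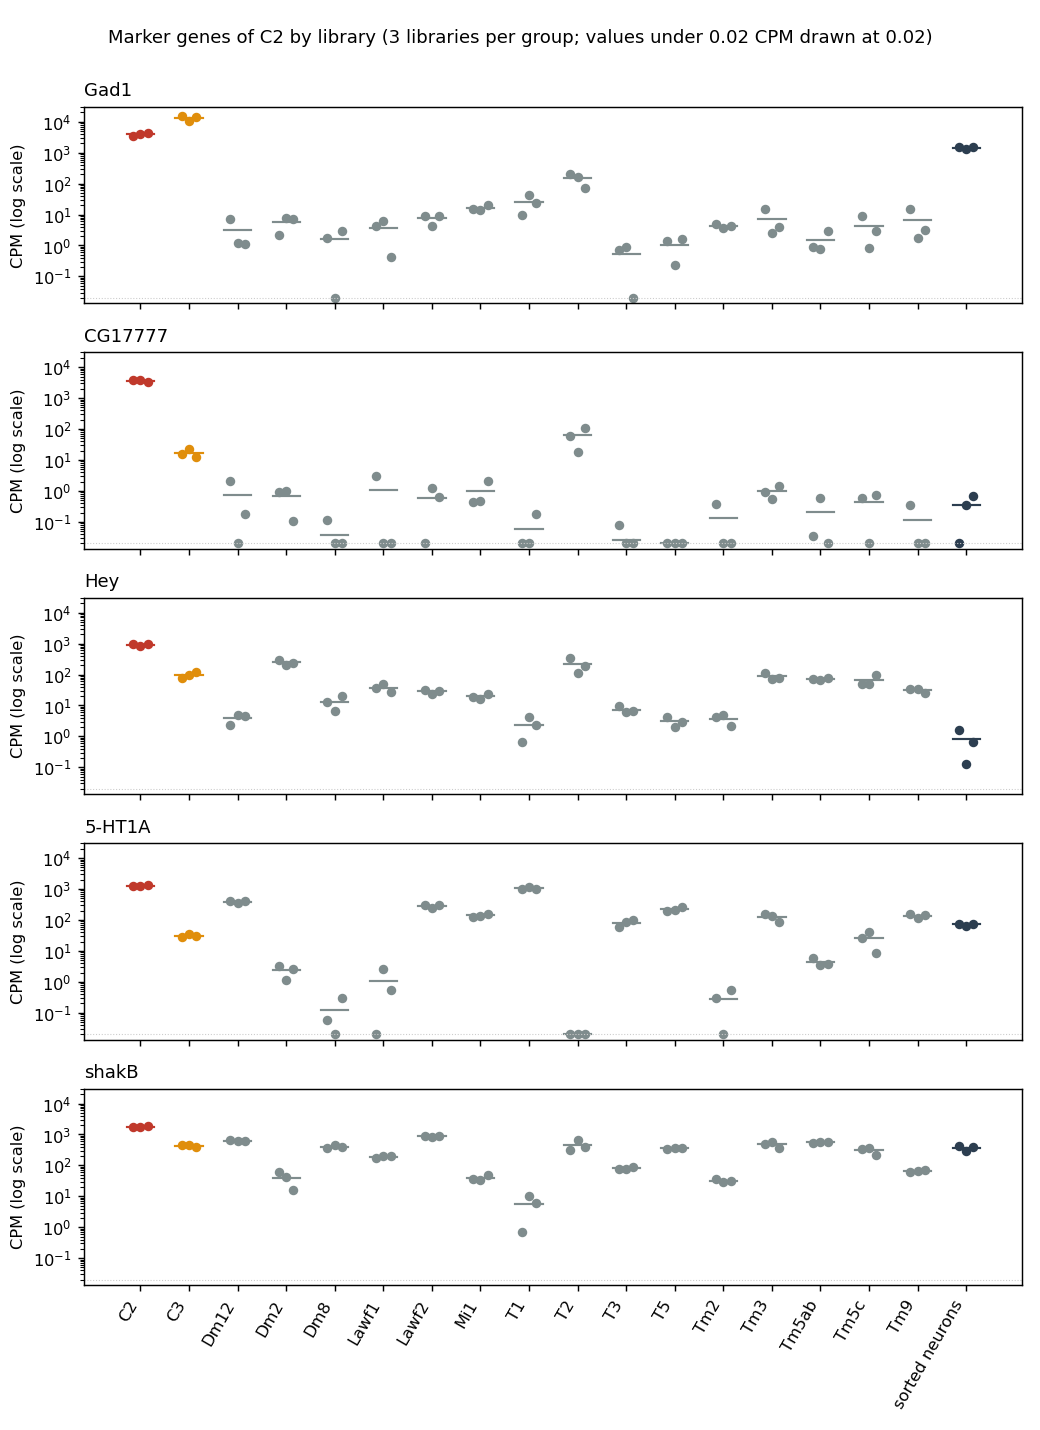
Level of Gad1, CG17777, Hey, 5-HT1A and shakB in each library, in CPM on a log axis, for C2 on the left, then C3, the other 15 types and sorted neurons at the right; points are libraries and bars their mean. C2 is second to C3 for Gad1 and above the libraries of every other single type for the other 4 genes, with T1 next for 5-HT1A at 1069.6 CPM.

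C2 had many genes at raised levels and fewer at lowered ones. Of 12569 genes tested with edgeR's quasi-likelihood test, 2985 (23.7%) were higher and 780 (6.21%) lower in C2 than the mean of the other types, at a Benjamini-Hochberg adjusted p under 0.05 and a change of at least 2-fold. Most of the higher genes were weakly expressed, with a median of 3.03 CPM in C2, so the calls with at least 20 CPM, 853 higher (6.79%) and 550 lower (4.38%, by the mean of the other types), are the ones described by name. The shares of 23.7% and 6.21% are the background for the counts within gene lists, though they depend on genes that some type lacks, as given below. With 1 GEO sample per type, p-values reflect only how the 3 libraries of a type varied, in a spread estimated over all groups. That variation may be technical. In these bulk libraries, fewer cells with a transcript and less of it per cell cannot be told apart.

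The direction counts depend on how types without a read are handled. At least 1 of the other types had no read for 4514 tested genes. The edgeR contrast called 1928 of these genes higher and 0 lower. Of the 8055 genes with a read in every other type, it called 1057 higher and 780 lower. Gene lists differ in their number of genes with such a type, for example 0 of 10 nicotinic receptors and 42 of 62 homeodomain factors. The shares over all genes are therefore an unequal background for edgeR counts of different lists. With limma on voom values, where such a type keeps a finite level, 2501 genes (19.9%) were higher and 1190 (9.47%) lower, and 841 of the 853 higher genes of at least 20 CPM were called by both. For genes with such a type, the text gives a log2 difference against the 16 types with each empty type set at 3 reads over its libraries, which is a lower bound. Over all genes tested, the median log2 difference was 0.21, or 0.10 with such genes at their bound, and list medians are given with bounds in this way.

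Reads in genes ranged from 22.466 to 28.875 M in the C2 libraries, and from 0.602 to 30.972 M in those of the other 16 types, where the shallowest belong to T2. Genes with a read numbered 11275 to 12062 per C2 library and 6252 to 12785 in the others. A level of 0 in C2 allows up to 0.0381 CPM, which is 3 reads over its libraries, and in T2 up to 0.47 CPM. These limits cover counting error only.

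All 3 C2 libraries lay above all libraries of the other types for 251 genes (2%), and below them all for 70 genes (0.557%). Tested against each of the 16 types singly, C2 was higher than every one for 45 genes (0.358%) and lower than every one for 27 (0.215%). The 45 include Hey, neur, Pdfr, Sobp, Sr-CI, CG17777 and Mct1, and the 27 include mamo, Pkc53E, Elk, Oamb, dpr21 and app. Gad1 failed this count against C3, 5-HT1A against T1, and shakB against Lawf2, where the edgeR adjusted p was 0.0525.

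The genes that led the higher calls included receptors, a scavenger receptor, a transporter and several without a described role. CCHa1-R, the receptor for the peptide CCHamide-1, was at 104, 92.6 and 88.4 CPM in C2, against a median of 0.0575 CPM and 31.3 CPM in Dm8 (at least 8.78 on the log2 scale, edgeR adjusted p = 4.59e-19). Of the other 16 types, Dm8 alone had more than 3 CPM. Sobp, named for its binding to the eye factor sine oculis, was at 281, 323 and 297 CPM in C2, against a median of 0.481 CPM and 3.53 CPM in Lawf1 (at least 9.24 on the log2 scale, edgeR adjusted p = 2.53e-22). It was 85-fold above the next type. Sr-CI, a scavenger receptor known from hemocytes, was at 72.6, 43.2 and 45.3 CPM in C2, against 1.17 CPM in Dm2 as the highest other type. NijC, a ninjurin adhesion protein, averaged 36.2 ± 4.49 CPM in C2 and 2.43 CPM in C3. Ccdc85 averaged 91.7 ± 8.02 CPM and gas 180.3 ± 35.2 CPM in C2, with C3 second at 32.7 and 84.4 CPM. CG14947 was at 41.8, 67.3 and 31.5 CPM in C2 and had 23.4 CPM in T1, and 11 of the 16 types had no read of it.

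Some of the leading genes lie close together in the genome. GluRIIC, a subunit of the muscle glutamate receptor, was at 68, 87.8 and 33.1 CPM in C2, and Lsp1beta, a larval serum protein, at 98, 118 and 49.6 CPM. Library 3 was the lowest for both, and both lie on chromosome 2L, Lsp1beta at 898500 to 901316 and GluRIIC at 914086 to 917805 (genome build BDGP6). The highest other type was Tm5c for both, with 10.3 CPM in Tm5c for GluRIIC and 9.67 CPM in Tm5c for Lsp1beta. Library 3 of Tm5c was the highest of its libraries for both, the Tm5c libraries being at 0.61, 2.57 and 27.7 CPM for GluRIIC and at 0.711, 7.43 and 20.9 CPM for Lsp1beta. p-cup was at 29.2, 20.9 and 31.1 CPM and CG8568 at 80.4, 79.6 and 80.9 CPM in C2, against 1.69 CPM in Tm5c and 8.26 CPM in Lawf1. This pair lies at 17446350 to 17448774 and 17448990 to 17452543 on the X. Of the 160 genes called higher with at least 20 CPM and no overlap of libraries, 31 had an annotated neighbour in the same set. This count includes members of the run described next and an antisense RNA that shares exon bases with Mct1. How many neighbours a set of this size would have among all genes tested was not computed, so the count is a description only.

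A run of genes that starts at CG17777 was singled out after its values were seen, and not all of its members are in that set. CG17777 lies on the X at 2186855 to 2187741, and from there every one of the next 9 annotated genes was higher in C2 than in the mean of the other types. CG3457 was at 42.1, 48.3 and 33.7 CPM in C2, against 1.6 CPM in Lawf1 as the highest other type. Mct1, which encodes a monocarboxylate transporter, was at 257, 280.2 and 277 CPM, against 20.2 CPM in Mi1. CG14053 averaged 30.4 ± 2.73 CPM in C2 and CG14052 59.7 ± 5.41 CPM, against 1.52 CPM in T3 and 4.35 CPM in T2. Every C2 library was above every other library for each of these. FarO, a fatty acyl-CoA reductase, averaged 19.1 ± 2.94 CPM in C2, SmydA-8 17.9 ± 3.44 CPM and Vinc, which encodes vinculin, 8.1 ± 1.08 CPM, against highest other types of 1.57 CPM in T3, 4.32 CPM in T2 and 2.33 CPM in T2. Vinc was the member of the run whose C2 libraries overlapped those of other types. pcx, which encodes the membrane protein pecanex and has measurable levels in all 16 types, was at 772, 917 and 791 CPM in C2, against a median of 144 CPM and 536 CPM in Lawf2. The antisense RNA CR43637 averaged 77.8 ± 7.72 CPM in C2, and since 32.1% of its exon bases are shared with Mct1 and the library kits do not mark strand, its reads cannot be fully told apart from those of Mct1.

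Beyond this run, genes called higher were mixed with others that were not. CG17776, the next gene before CG17777, averaged 22.8 ± 3.81 CPM in C2, against a median of 13.2 CPM and 128 CPM in Lawf1, and was not called. Nmd3, before it, averaged 62.6 ± 8.43 CPM in C2 and 42.2 CPM in Tm5c (log2 fold change 1.15 ± 0.15, edgeR adjusted p = 9.43e-09). After pcx, kz averaged 51.5 ± 5.32 CPM in C2 and 76.1 CPM in T2, and fs(1)K10 55.9 ± 3.95 CPM in C2 and 51.2 CPM in Lawf2. kz was called higher by both tests and fs(1)K10 by limma alone. Further on, crn averaged 68.3 ± 5.49 CPM in C2 and 44.7 CPM in T1 (log2 fold change 1.97 ± 0.19, edgeR adjusted p = 4.80e-12). CG3191 averaged 79.7 ± 7.42 CPM in C2 and 66.6 CPM in Tm5ab (log2 fold change 2.02 ± 0.17, edgeR adjusted p = 6.93e-14). limma also called both higher, and neither test called Or2a, which lies before crn. The C2 libraries of crn lay above every other library, and those of CG3191 did not. In C3 the genes from CG3457 to CG14052 averaged between 0.152 and 6.16 CPM.

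**Figure D2:**
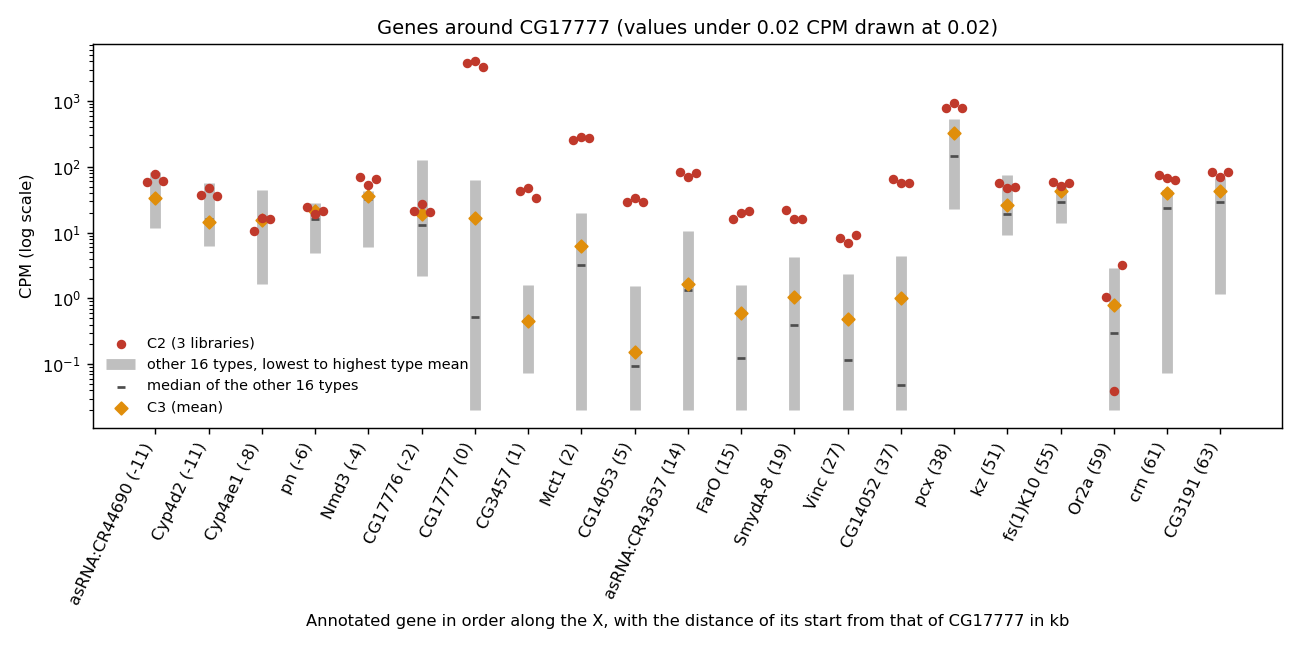
Level of annotated genes around CG17777 in their order along the X, in CPM on a log axis, with the distance of each start from that of CG17777 in kb; red points are the C2 libraries, grey bars run from the lowest to the highest mean of the other 16 types, and diamonds are C3. From CG17777 to pcx the C2 points lie above the grey bars, with CG17777 at 3304.8 to 3992.4 CPM. So do those of Nmd3 among the genes to the left, and of fs(1)K10, crn and CG3191 among those to the right.

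C2 expressed the GABA genes, and its acetylcholine genes were low. Of the 5 genes for GABA synthesis, release and uptake, 4 were higher and 0 lower than in the mean of the other types (median log2 1.29). Gad1 differed by 8.89 on the log2 scale (edgeR adjusted p = 5.31e-24) and VGAT by 1.29 (adjusted p = 3.10e-12). Ssadh, which degrades a product of GABA breakdown, averaged 178 ± 6.26 CPM in C2, against a median of 88.8 CPM (log2 fold change 1.17 ± 0.13, edgeR adjusted p = 4.12e-10). Without T2 its difference was 0.887, under the 2-fold limit. Gat, the GABA transporter, averaged 17 ± 8.15 CPM in C2, against a median of 7.71 CPM, also higher, and Gabat, the GABA transaminase, 406 ± 12.2 CPM and a median of 248 CPM, below the limit of 2-fold.

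The 3 matched genes of acetylcholine synthesis and transport were all lower (median log2 -3.56). ChAT, which makes acetylcholine, was at 3.4, 11.9 and 6.34 CPM in C2, against a median of 430.3 CPM and 1716 CPM in Tm9 (log2 fold change -4.33 ± 0.51, edgeR adjusted p = 3.24e-09). C3 had 6.69 CPM. ChT, the choline transporter, averaged 4.56 ± 0.565 CPM in C2, against a median of 90.2 CPM, though CG46318 covers 69.5% of its exons. Ace, the acetylcholinesterase, was at 315, 292 and 350.2 CPM in C2, against a median of 1228 CPM (log2 fold change -1.72 ± 0.16, edgeR adjusted p = 4.97e-13), and C3 was lower still at 76.5 CPM.

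Of the 5 genes of glutamate release and uptake, 0 were called by edgeR. VGlut, the vesicular glutamate transporter, averaged 7.56 ± 5.68 CPM in C2, against a median of 6.43 CPM and 3758 CPM in Dm8. It has a type without a read, and limma called it lower (log2 fold change -1.48, adjusted p = 0.0397). Among the 13 genes of monoamine and histamine synthesis and transport, 4 were higher and 2 lower (limma 4 and 3). ple, tyrosine hydroxylase, was at 86.2, 97.3 and 81.7 CPM in C2, against a median of 21.8 CPM and 327 CPM in Dm2 (log2 fold change 3.07 ± 0.27, edgeR adjusted p = 5.78e-13). Ddc, which acts after ple in dopamine synthesis, was at 15.5, 35.2 and 29.3 CPM in C2, against a median of 189.6 CPM (log2 fold change -2.24 ± 0.35, edgeR adjusted p = 1.02e-06). Tbh, the last enzyme of octopamine synthesis, averaged 3.99 ± 1.15 CPM in C2, against a median of 6.88 CPM (log2 fold change -1.92 ± 0.49, edgeR adjusted p = 0.0013). Vmat, the vesicular amine transporter, averaged 2.57 ± 1.67 CPM in C2 and 2184 CPM in Dm2, and Hdc, which makes histamine, had no read in C2.

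Of the 10 nicotinic acetylcholine receptor subunits, 1 was higher and 1 lower, beside 23.7% and 6.21% of all genes. Each subunit had a read in every other type, and of the 8055 such genes 1057 were higher and 780 lower. nAChRalpha6 was at 10.4, 29.5 and 12.6 CPM in C2, against a median of 269 CPM (log2 fold change -3.36 ± 0.39, edgeR adjusted p = 1.52e-09), and C3, at 3.86 CPM, was the lowest of the 17 types. nAChRbeta3, the higher subunit, averaged 1.37 ± 1.42 CPM in C2, shares all its exon bases with Ets21C and was not called by limma. The other 8 averaged between 81 and 542 CPM in C2, and nAChRbeta1, with 481 ± 31.3 CPM in C2, against a median of 834 CPM, had the largest difference of these (-0.82 on the log2 scale). Of the 3 muscarinic receptors, 0 were called by edgeR, mAChR-A averaged 102 ± 15 CPM in C2, against a median of 238 CPM, and mAChR-B averaged 0.682 ± 1.18 CPM in C2 and 273 CPM in Dm8, lower by limma.

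Of 7 GABA receptor genes, 1 was higher and 1 lower. GABA-B-R3, a metabotropic receptor, was at 113, 127 and 70.7 CPM in C2, against a median of 43.8 CPM and 4.4 CPM in C3 (log2 fold change 1.47 ± 0.23, edgeR adjusted p = 6.20e-07). Dm2, with 812 CPM, Tm3, Tm2, Lawf2 and Lawf1 had higher means of GABA-B-R3 than C2. CG8916, a subunit of ligand-gated chloride channels, was at 4.53, 7.82 and 8.29 CPM in C2, against a median of 111 CPM (log2 fold change -2.56 ± 0.59, edgeR adjusted p = 0.000427). Tm2, with 1.38 CPM, Tm9, Lawf2, Lawf1, Mi1 and T1 had lower means of CG8916 than C2. Rdl, the main GABA-gated channel, was at 1793, 2075 and 1764 CPM in C2, against a median of 2739.8 CPM, and was not called. GABA-B-R1 averaged 179 ± 4.78 CPM in C2, against a median of 336 CPM, a difference of -0.99 on the log2 scale that stopped short of 2-fold, and GABA-B-R2 averaged 385 ± 25.9 CPM in C2, against a median of 373 CPM.

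Glutamate receptors were called in both directions. Of the 17 tested genes, 6 were higher and 2 lower in C2 by edgeR, and 6 higher and 4 lower by limma (median log2 -0.07). GluRIA and GluRIB, the AMPA-type subunits, were at 137, 102 and 138 CPM and at 165, 149.8 and 162 CPM in C2, against medians of 9.65 and 30.2 CPM. Means were higher than in C2 for GluRIA in Dm12, with 332 CPM, Mi1, C3 and Dm2, and for GluRIB in C3 and T5. Both genes differed from the mean of the other types (log2 3.20 and 2.55, adjusted p = 2.56e-15 and 1.70e-15), and GluRIB was lower than the 525 CPM of C3 (log2 fold change -1.72 ± 0.35, edgeR adjusted p = 0.000321). Ekar, a kainate-type subunit, averaged 44.1 ± 6.56 CPM in C2, against a median of 21.2 CPM. Nmdar1, an NMDA receptor subunit, averaged 109 ± 13.1 CPM in C2, against a median of 58.3 CPM (log2 1.03), falling just under the 2-fold limit without C2 library 2 or without T2. GluRIIC had the largest difference of the list, whereas GluRIIA averaged 0.0114 ± 0.0197 CPM in C2, and GluRIIB and GluRIID, which join GluRIIC in the muscle receptor, had no read in C2. GluRIIA was lower by limma alone. The metabotropic receptors were lower than in the mean of the other types, mGluR at 6.26 ± 1.2 CPM in C2, against a median of 9.99 CPM (log2 fold change -1.75 ± 0.44, edgeR adjusted p = 0.00117), and mtt at 1.64 ± 0.855 CPM in C2, against a median of 13.4 CPM (log2 fold change -2.62 ± 0.51, edgeR adjusted p = 3.56e-05). Means were lower than in C2 for mGluR in Tm5ab, with 2.05 CPM, Dm8, Dm12, T3 and Tm9. For mtt they were lower in Lawf1, with 0.257 CPM, Dm12, C3 and T1. GluClalpha, the glutamate-gated chloride channel, averaged 371 ± 19.6 CPM in C2, against a median of 625 CPM, and was not called.

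The pair of histamine-gated chloride channels moved in opposite directions. ort, through which lamina and medulla neurons sense histamine from photoreceptors, was at 77.9, 78.9 and 80.4 CPM in C2, against a median of 6.29 CPM and 1347 CPM in Tm5c (log2 fold change 2.92 ± 0.46, edgeR adjusted p = 1.30e-06). C3 had 2.39 CPM, and Tm5c, Tm5ab, Dm8, T1 and Tm2 were above C2. HisCl1 averaged 3.7 ± 1.17 CPM in C2, the lowest of the 17 types, against a median of 12.9 CPM (log2 fold change -1.91 ± 0.35, edgeR adjusted p = 1.00e-05).

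Amine receptors differed in both directions, with 5-HT1A and Octbeta1R far above the mean of the other types and Oamb and 5-HT2A far below it. All 5 serotonin receptors were called, 4 higher and 1 lower (median log2 1.02; limma 3 and 1). 5-HT1A differed by at least 5.99 on the log2 scale, with no read in T2 (edgeR adjusted p = 4.25e-26). 5-HT7, which raises cyclic AMP, averaged 39.3 ± 7.76 CPM in C2, against a median of 35.7 CPM. T2, with 435 CPM, Mi1, Tm5c, Dm2, Tm2, Dm12 and Tm9 had higher means of 5-HT7 than C2. Lawf2 had no read of 5-HT7, so the size of the edgeR difference depends on how that type is handled. 5-HT1B, a relative of 5-HT1A, averaged 38.5 ± 9.61 CPM in C2, against a median of 21.9 CPM. The call for 5-HT1B was lost without C2 library 2 (log2 0.87, edgeR adjusted p = 0.0776), and without C3 its difference of 0.98 was under the 2-fold limit. 5-HT2B averaged 2.71 ± 2.62 CPM in C2 and was called by edgeR alone. 5-HT2A was at 1.01, 0.55 and 1.09 CPM in C2, against a median of 28.9 CPM (log2 fold change -4.04 ± 0.55, edgeR adjusted p = 5.21e-08), and C3 had 40.1 CPM. Lawf2, with 0.186 CPM, and Lawf1 had lower means of 5-HT2A than C2.

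Of 8 octopamine and tyramine receptors, 2 were higher and 3 lower (median log2 -0.96). Octbeta1R, which raises cyclic AMP, was at 2075, 2015 and 2122 CPM in C2, against a median of 32.1 CPM (log2 fold change 5.57 ± 0.24, edgeR adjusted p = 1.90e-22). C3, with 3076 ± 166 CPM, and Mi1, with 2128 CPM, were above C2, and the next type was Dm8 with 1000.1 CPM. Octalpha2R averaged 142 ± 14.6 CPM in C2, against a median of 79.3 CPM and 8.25 CPM in C3 (log2 fold change 1.34 ± 0.18, edgeR adjusted p = 3.54e-08). Dm12, with 1170 CPM, Tm2, T3, T5, T2 and Lawf1 had higher means of Octalpha2R than C2. Oamb, which acts through calcium, was at 0.21, 2.43 and 1.3 CPM in C2, the lowest of the 17 types and lower than each of them singly, against a median of 145 CPM (log2 fold change -6.19 ± 0.48, edgeR adjusted p = 7.21e-15). Octbeta3R averaged 5.7 ± 3.64 CPM in C2, against a median of 134 CPM (log2 fold change -3.55 ± 0.37, edgeR adjusted p = 4.82e-11). C3, with 2.92 CPM, and Dm12, with 0.297 CPM, had lower means of Octbeta3R than C2. Oct-TyrR averaged 1.23 ± 1.12 CPM in C2, against a median of 5.21 CPM, a call that was lost without C2 library 2 (adjusted p = 0.117). Its means were lower than in C2 in Tm2, with 0.413 CPM, T3, Lawf2 and C3. Octbeta2R averaged 115.3 ± 1.35 CPM in C2, against a median of 154 CPM, and TyrR 1.51 ± 1.55 CPM in C2, against a median of 6.45 CPM. TyrR was lower by limma alone.

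Of the 4 dopamine receptors, 1 was higher and 2 lower (median log2 -1.36). Dop2R, which lowers cyclic AMP, was at 4.74, 8.99 and 10.4 CPM in C2, against a median of 48.5 CPM (log2 fold change -2.80 ± 0.39, edgeR adjusted p = 9.95e-08). Tm2, with 1.71 CPM, T5 and Lawf2 had lower means of Dop2R than C2. DopEcR, a receptor for dopamine and ecdysone, was at 173, 229 and 181 CPM in C2, against a median of 697 CPM (log2 fold change -1.55 ± 0.15, edgeR adjusted p = 3.85e-12), and 13 of the 16 types were higher singly. Dop1R2, the higher one, averaged 12.8 ± 3.06 CPM in C2, against a median of 9.28 CPM, and Dop1R1, not called, 3.73 ± 0.628 CPM in C2, against a median of 13.8 CPM. Per kilobase of exon, the C2 level was 383 CPM for Octbeta1R, 254 CPM for 5-HT1A, 45.3 CPM for DopEcR, 15.3 CPM for Octbeta2R and 14.5 CPM for Octalpha2R.

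Neuropeptide receptors were called in both directions, with Pdfr and SIFaR among the higher ones. Of 39 receptor genes, 15 were higher and 3 lower by edgeR, and 13 and 6 by limma, where higher calls also outnumbered lower ones over all genes tested (2985 and 780 by edgeR, 2501 and 1190 by limma; list median log2 0.73). Pdfr, the receptor of the clock peptide PDF, was at 845, 813 and 844 CPM in C2, against a median of 69.7 CPM and 397 CPM in T2 (log2 fold change 4.37 ± 0.22, edgeR adjusted p = 8.92e-21). It was higher than each of the 16 types singly, and C3 had 43.8 CPM. SIFaR, the SIFamide receptor, was at 295, 248 and 299 CPM in C2, against a median of 42.3 CPM and 3.52 CPM in C3 (log2 fold change 2.86 ± 0.22, edgeR adjusted p = 2.95e-15). Dm2, with 804 CPM, had a higher mean, and those of Dm8, with 286 CPM, and Tm5ab, with 283 CPM, were within the spread of the C2 libraries. The myosuppressin receptors MsR1 and MsR2 averaged 65.4 ± 7.6 CPM and 45.8 ± 11.8 CPM in C2, against medians of 8.45 and 7.33 CPM and 4.31 and 4.04 CPM in C3. TkR99D, a tachykinin receptor, averaged 167 ± 11.7 CPM in C2, the highest of the 17 types, and 147 CPM in Lawf2. AstA-R1 averaged 91.6 ± 25.4 CPM in C2, against a median of 9.57 CPM. ETHR, the receptor of ecdysis triggering hormone, averaged 80.5 ± 2.25 CPM in C2, against 432 ± 73.7 CPM in C3 and a median of 27.4 CPM. Dh44-R2, with 33.2% of its exon bases shared with another gene, averaged 17.2 ± 2.02 CPM in C2, against a median of 28.4 CPM (log2 fold change -1.16 ± 0.24, edgeR adjusted p = 0.000102). SPR, the sex peptide receptor, averaged 6.06 ± 0.576 CPM in C2, against a median of 32.2 CPM. The SPR call was lost without C2 library 1 (adjusted p = 0.064) or library 2 (adjusted p = 0.0742), and without T2 its difference was -0.981. sNPF-R averaged 1.66 ± 0.903 CPM in C2, against a median of 19.1 CPM, and Dh44-R1 0.475 ± 0.823 CPM in C2 and 642 CPM in Dm12, both lower by limma alone.

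Of 35 tested peptide precursors, 16 were higher and 5 lower by edgeR, and 12 and 7 by limma (median log2 0.89), but just 2 of the 16 had at least 20 CPM in C2. Proc, the proctolin precursor, was at 105, 94.6 and 104 CPM in C2, against a median of 11.9 CPM and 776 CPM in Lawf1 (log2 fold change 3.56 ± 0.41, edgeR adjusted p = 1.60e-09). ITP, ion transport peptide, was at 49.5, 30.9 and 51.6 CPM in C2, against a median of 19.9 CPM, and Lawf2, C3, Tm5c and T2 had higher means. The 5 lower precursors were sNPF (3.27 ± 4.11 CPM in C2, median 33.3 CPM), Tk (9.56 ± 8.15 CPM in C2, median 7.63 CPM), Nplp1 (4.99 ± 2.34 CPM in C2, median 9.13 CPM), spab (2.52 ± 0.981 CPM in C2, median 14 CPM) and amn (19.3 ± 4.14 CPM in C2, median 38.5 CPM). The Tk libraries were at 2.64, 18.5 and 7.5 CPM in C2, so that its mean lay above the median of the types although the log2 contrast was negative, and it lost its call without library 1 (adjusted p = 0.124) or library 3 (adjusted p = 0.075). The summed level of the list was 261 CPM in C2, and ran over the other types from 176 CPM to 5599 CPM in T3.

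**Figure D3:**
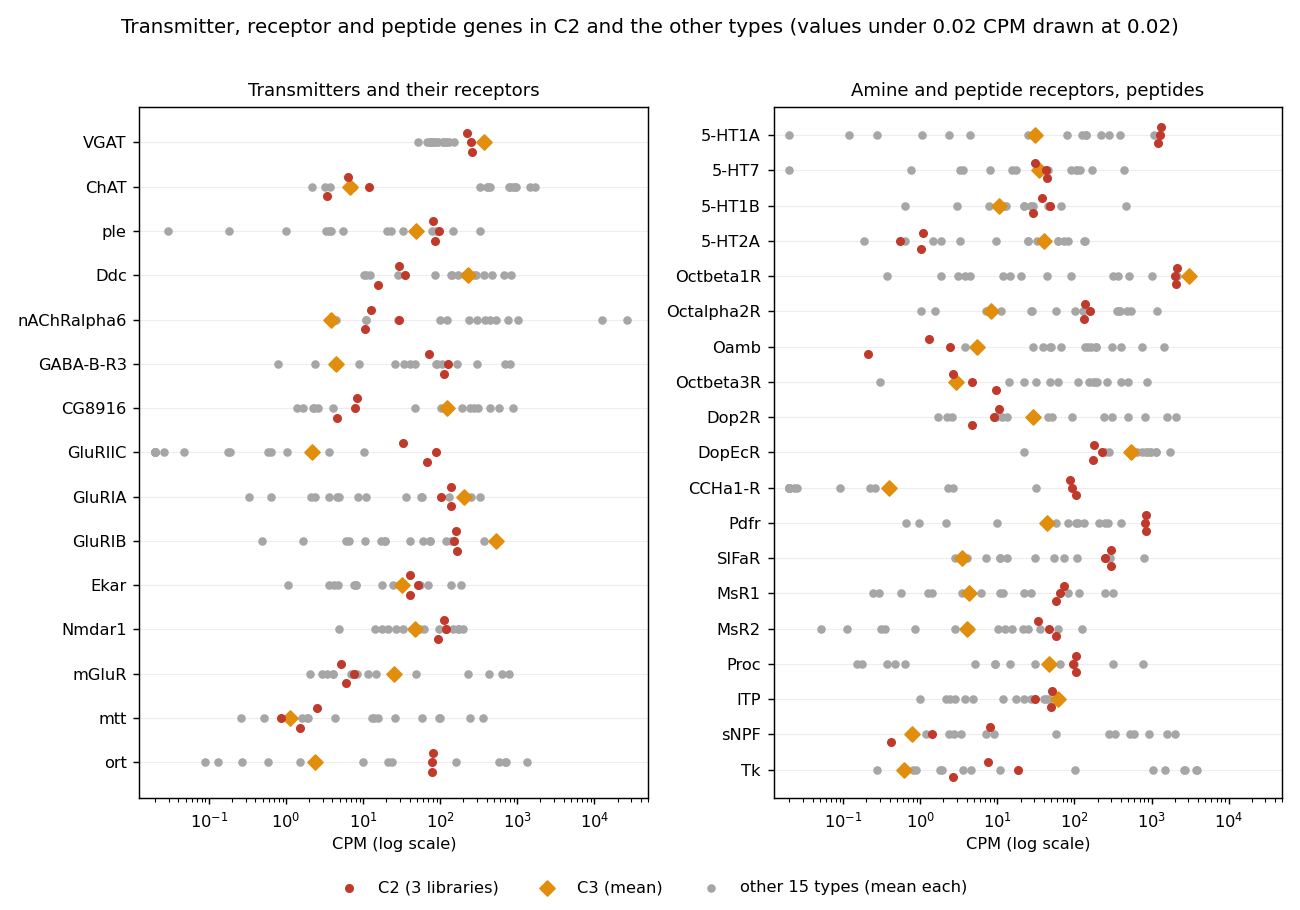
Levels of named transmitter, receptor and peptide genes in CPM on a log axis; red points are the 3 C2 libraries, diamonds the C3 mean and grey points the means of the other 15 types. C2 lies at the top of the range for 5-HT1A, CCHa1-R, Pdfr and GluRIIC, near C3 for Octbeta1R and ChAT, and at the bottom for Oamb, whose C2 libraries reach at most 2.43 CPM.

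Cell-surface genes were called in both directions against the mean of the other types. Among the surface lists, 0 genes were higher than each type singly, and dpr21 alone was lower than each. The Dpr and DIP families are immunoglobulin proteins that bind each other across synaptic partners. Of the 32 tested genes, 11 were higher and 8 lower in C2 (limma 10 and 9; median log2 0.18), and 0 had their highest mean in C2. DIP-beta was at 257, 247 and 267 CPM in C2, against a median of 1.5 CPM and 1428 CPM in Lawf2 (at least 7.14 on the log2 scale, edgeR adjusted p = 1.48e-17). Lawf2, Tm5c and Lawf1 were above C2, and C3 had 2.18 CPM. DIP-kappa was at 49.8, 40.5 and 59.4 CPM in C2, against a median of 3.54 CPM (log2 fold change 3.82 ± 0.42, edgeR adjusted p = 7.65e-10). Among the dpr genes, dpr15 averaged 115.2 ± 14.4 CPM in C2, against a median of 4.33 CPM, dpr5 91.2 ± 6.72 CPM and 14.2 CPM, and dpr18 360.3 ± 37.9 CPM and 108 CPM. All 5 of these were also higher in C2 than in C3. dpr2 was at 0, 0.118 and 0.375 CPM in C2, against a median of 21.4 CPM (log2 fold change -6.12 ± 0.99, edgeR adjusted p = 1.89e-06), and C3 had 0.0294 CPM. dpr13 averaged 0.783 ± 1.0 CPM in C2, against a median of 43.7 CPM, dpr1 1.8 ± 0.313 CPM and 56.3 CPM, and dpr3 2.93 ± 2.14 CPM and 41.6 CPM. dpr21 was at 43.4, 40.4 and 43.3 CPM in C2, below every library of the other types, whose median was 207 CPM (log2 fold change -2.37 ± 0.21, edgeR adjusted p = 3.02e-13).

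Beat and Side proteins form another network of binding pairs between neurons. Of the 21 tested genes, 8 were higher and 10 lower in C2 (limma 8 and 11; median log2 -1.93). side-III was at 3136, 2986 and 3403 CPM in C2, above every library of the other types, against a median of 196 CPM, 1666 CPM in T2 and 105 CPM in C3 (log2 fold change 3.96 ± 0.11, edgeR adjusted p = 2.57e-33). The genes of the beat-V group were higher together, beat-Vc with 46.9 ± 8.31 CPM in C2, against a median of 0.885 CPM, beat-Vb with 62.7 ± 4.18 CPM and 1.99 CPM, and beat-Va with 16.4 ± 2.71 CPM and 0.758 CPM. beat-IV averaged 109 ± 15.2 CPM in C2, against a median of 10.5 CPM, and beat-IIIc 44.8 ± 10.1 CPM and 5.16 CPM. side-V was at 4.78, 7.03 and 5.56 CPM in C2, against a median of 90.9 CPM (log2 fold change -3.45 ± 0.36, edgeR adjusted p = 3.95e-11). beat-IIIb averaged 13.6 ± 3.65 CPM in C2, against a median of 354 CPM, beat-IIb 3.71 ± 2.49 CPM and 63.4 CPM, beat-Ic 1.9 ± 1.69 CPM and 10.9 CPM, and side-IV 22.6 ± 4.95 CPM and 237 CPM. Of the exon bases of side-IV, 67.5% are shared with an antisense gene.

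Of the 7 Dscam and Irre-module genes, which act in self-avoidance and in cell recognition in the eye and optic lobe, 0 were higher and 5 lower (median log2 -2.07). Dscam1 was at 22.3, 26.7 and 20.1 CPM in C2, against a median of 126 CPM (log2 fold change -2.41 ± 0.25, edgeR adjusted p = 1.78e-11). Dscam3 averaged 37.2 ± 6.25 CPM in C2, against a median of 229 CPM, Dscam4 182 ± 2.68 CPM and 425 CPM, kirre 18.1 ± 9.48 CPM and 105 CPM, and rst 0.842 ± 0.669 CPM and 8.46 CPM.

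Among other adhesion proteins, with 46 genes tested, 15 were higher and 15 lower in C2 (median log2 0.06). ed, an immunoglobulin protein, was at 97.9, 99.2 and 120.4 CPM in C2, against a median of 20.9 CPM and 0.997 CPM in C3 (log2 fold change 2.68 ± 0.43, edgeR adjusted p = 1.82e-06), and its relative fred averaged 92.9 ± 14.9 CPM in C2 and 1.28 CPM in C3. CadN2, a neural cadherin, averaged 245 ± 66.7 CPM in C2, against a median of 69 CPM. Con, a leucine-rich repeat protein, averaged 201 ± 13.6 CPM in C2, against a median of 94.1 CPM, and Cad96Ca 28.3 ± 3.39 CPM and 8.79 CPM. tutl, which acts in axonal tiling of the visual system, was at 12.5, 35.5 and 25.9 CPM in C2, against a median of 1484 CPM (log2 fold change -4.86 ± 0.30, edgeR adjusted p = 5.53e-19). trn averaged 0.29 ± 0.272 CPM in C2, against a median of 8.27 CPM, caps, its relative, 2.51 ± 2.34 CPM and 65.4 CPM, klg 5.56 ± 4.88 CPM and 143 CPM, and CG34353 2.98 ± 0.84 CPM and 45.3 CPM. Lar, a receptor phosphatase of axon targeting, averaged 176 ± 20.5 CPM in C2, the lowest of the 17 types, and a median of 587 CPM, though 83.6% of its exon bases are shared with CG46244.

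Among axon guidance ligands and receptors, with 31 genes tested, 4 were higher and 8 lower in C2 (limma 3 and 8; median log2 -0.61). unc-5, a netrin receptor of repulsion, was at 484, 479 and 491 CPM in C2, above every library of the other types, against a median of 36.8 CPM and 388 CPM in T2 (log2 fold change 3.42 ± 0.20, edgeR adjusted p = 4.35e-19). fra, the attractive netrin receptor, averaged 25.8 ± 4.58 CPM in C2, against a median of 63.5 CPM (log2 fold change -1.14 ± 0.23, edgeR adjusted p = 4.64e-05). robo3, a Slit receptor, was at 0, 0 and 0.546 CPM in C2, against a median of 16.1 CPM (log2 fold change -5.75 ± 1.09, edgeR adjusted p = 3.05e-05). Sema2b averaged 13 ± 2.14 CPM in C2, 293 CPM in C3 and a median of 69.7 CPM over the types. The Wnt receptors fz, fz2 and Drl-2 averaged 3.01 ± 1.23 CPM, 36.5 ± 2.94 CPM and 3.12 ± 0.809 CPM in C2, against medians of 18.1, 94.1 and 17.2 CPM, all lower.

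**Figure D4:**
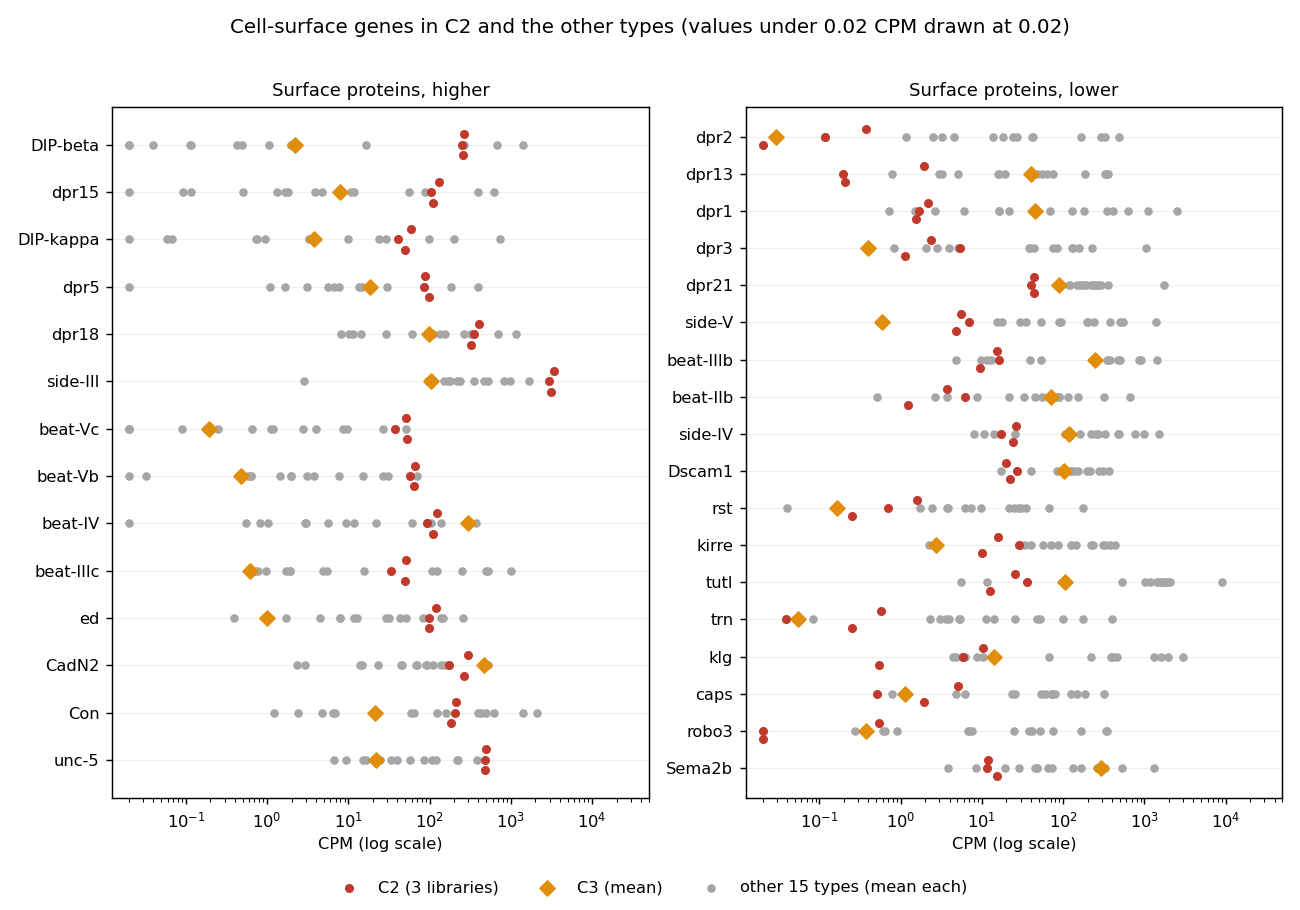
Levels of named cell-surface genes in CPM on a log axis, genes higher in C2 at the left and lower at the right; red points are the 3 C2 libraries, diamonds the C3 mean and grey points the means of the other 15 types. side-III and unc-5 lie at the top of the range, while dpr21 at 40.4 to 43.4 CPM lies below all other types.

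Among channel and transporter genes, kcc and shakB were highest in C2 of the 17 types. Of the 7 tested innexins, which form gap junctions in insects, 5 were higher and 0 lower (median log2 1.79). shakB differed by 3.40 on the log2 scale (edgeR adjusted p = 1.66e-19). Of the others called, Inx3 averaged 18.9 ± 7.03 CPM in C2, against a median of 3.48 CPM, ogre 10.3 ± 2.7 CPM and 2.74 CPM, and Inx5 and Inx6 were under 1 CPM in C2. Inx5 was not called by limma.

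Among calcium, sodium, chloride and leak channels and related transporters, with 34 genes tested, 11 were higher and 3 lower in C2 (limma 12 and 4; median log2 0.35). kcc, the potassium-chloride cotransporter that lowers chloride inside neurons, was at 4726, 4169 and 4955 CPM in C2, above every library of the other types, against a median of 1363 CPM, 3457 CPM in T1 and 1855 CPM in C3 (log2 fold change 1.87 ± 0.14, edgeR adjusted p = 1.73e-15). SecCl, a ligand-gated chloride channel, was at 143, 134 and 117 CPM in C2, against a median of 6.0 CPM and 108 CPM in C3, while sorted neurons had 0.156 CPM (log2 fold change 4.23 ± 0.28, edgeR adjusted p = 1.42e-16). Teh3 and Teh4, auxiliary proteins of the voltage-gated sodium channel, averaged 697 ± 97.8 CPM and 239 ± 44.9 CPM in C2, against medians of 359 and 75.1 CPM. NaCP60E, a voltage-gated cation channel gene, averaged 4173 ± 126 CPM in C2, against a median of 1603 CPM, and iav, a TRPV channel, 40.9 ± 12.9 CPM and 9.24 CPM. pHCl-1, a pH-gated chloride channel, was at 1.26, 9.19 and 7.09 CPM in C2, against a median of 293 CPM (log2 fold change -4.67 ± 0.43, edgeR adjusted p = 2.21e-12). Trpm averaged 3.4 ± 1.27 CPM in C2, against a median of 119.7 CPM, and Cngl, a cyclic-nucleotide-gated channel, 209 ± 22.9 CPM and 1428 CPM, both lower.

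Among potassium channels, with 19 genes tested, 3 were higher and 5 lower in C2 (median log2 -0.08). Of the 3 genes of the ether-a-go-go family, eag was higher, Elk lower and sei not called. The level of sei averaged 300.3 ± 5.27 CPM in C2, against a median of 332 CPM. eag was at 599.8, 528 and 650.3 CPM in C2, against a median of 233 CPM and 6.85 CPM in C3 (log2 fold change 2.38 ± 0.24, edgeR adjusted p = 6.88e-11), and Elk was at 0.587, 1.14 and 0.0682 CPM in C2, below every other library, against a median of 11.9 CPM (log2 fold change -4.79 ± 0.77, edgeR adjusted p = 2.16e-06). SLO2, a sodium-activated channel, was at 6.62, 28.6 and 13.4 CPM in C2, against a median of 379 CPM (log2 fold change -4.13 ± 0.35, edgeR adjusted p = 1.16e-13). slo, the calcium-activated channel, averaged 429 ± 12.4 CPM in C2, against a median of 1028 CPM, KCNQ 7.96 ± 0.164 CPM and 24.6 CPM, and Hk, the Shaker beta subunit, 610.1 ± 26.5 CPM and 1465 CPM, all lower.

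Homeodomain factors tested numbered 62, of which 25 were higher and 4 lower by edgeR, and 21 and 8 by limma (median log2 0.40), but only 3 of the higher ones had at least 20 CPM in C2. Dll, Distal-less, was at 423, 479 and 445 CPM in C2, against 769.7 ± 30 CPM in C3 and a median of 0.451 CPM over the types (at least 9.29 on the log2 scale, edgeR adjusted p = 2.77e-22). hbn, homeobrain, was at 600.2, 559 and 529 CPM in C2, against 1817 ± 308 CPM in C3 and a median of 0.248 CPM (at least 8.14 on the log2 scale, edgeR adjusted p = 1.66e-27). toy, a Pax6 gene, was at 789.9, 768 and 902 CPM in C2, against 787 ± 33.5 CPM in C3 and a median of 3.5 CPM (log2 fold change 6.73 ± 0.33, edgeR adjusted p = 2.52e-20). All 3 were also high in C3, and hbn was lower in C2 than in C3 (log2 fold change -1.69 ± 0.47, edgeR adjusted p = 0.013). hth, homothorax, averaged 174 ± 8.38 CPM in C2, against a median of 285 CPM (log2 fold change -1.15 ± 0.13, edgeR adjusted p = 4.96e-10). The other lower members, vvl, Vsx1 and pdm3, averaged 0.147 ± 0.0814 CPM, 0.272 ± 0.257 CPM and 4.49 ± 3.59 CPM in C2, against highest levels of 519 CPM in Tm3, 275 CPM in Dm2 and 4629 CPM in Tm2, and each lost its call without some C2 library.

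Of 98 other transcription factors and RNA regulators tested, 25 were higher and 5 lower by edgeR, and 17 and 10 by limma (median log2 0.08), near the shares over all genes of 23.7% and 6.21% by edgeR and 19.9% and 9.47% by limma. bi, the T-box factor optomotor-blind, was at 1398, 1558 and 1507 CPM in C2, against a median of 11.5 CPM and 1363 CPM in Lawf2, and was at 3.62 CPM in C3 (log2 fold change 7.41 ± 0.23, edgeR adjusted p = 2.39e-27). pros, Prospero, was at 1089.5, 1227 and 1133 CPM in C2, against a median of 23.3 CPM and 11 CPM in C3 (log2 fold change 4.39 ± 0.28, edgeR adjusted p = 1.42e-16). ab, a zinc finger factor, was at 1546, 1673 and 1587 CPM in C2, against a median of 119 CPM, with only Lawf1 higher (log2 fold change 3.77 ± 0.14, edgeR adjusted p = 1.66e-27). fd59A, a forkhead factor, was at 222, 202 and 214 CPM in C2, against 171 CPM in C3 and a median of 2.0 CPM (at least 5.67 on the log2 scale, edgeR adjusted p = 1.28e-14). bru1, which encodes an RNA-binding protein, averaged 286 ± 36.5 CPM in C2, the highest of the 17 types, and 0.681 CPM in C3. mamo, a zinc finger factor, was at 18.8, 39.4 and 32.7 CPM in C2, below every library of the other types and lower than each of them singly, against a median of 848 CPM (log2 fold change -4.95 ± 0.23, edgeR adjusted p = 1.20e-23). erm averaged 2.22 ± 1.41 CPM in C2 and 1623 CPM in Tm5c, and Hr3, of which 82.7% of exon bases are shared with CG12912, 21.6 ± 1.08 CPM and a median of 40.5 CPM, both lower. dac, opa and rn had between 0.036 and 0.433 CPM in C2 and highest levels of 390.3 to 5044 CPM in other types, and were lower by limma alone.

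Of the 15 tested genes of the Notch pathway and its targets, 7 were higher and 2 lower (limma 6 and 2; median log2 1.21). Hey differed by 5.23 on the log2 scale (edgeR adjusted p = 6.28e-25). neur, which promotes endocytosis of Notch ligands, was at 64.5, 62.5 and 74 CPM in C2, against a median of 8.89 CPM and 25 CPM in T2, above every other library (log2 fold change 2.75 ± 0.30, edgeR adjusted p = 1.06e-10), but 38.8% of its exon bases are shared with an antisense gene. H, Hairless, a corepressor of Notch targets, averaged 199 ± 15.8 CPM in C2, against a median of 81 CPM. numb, which inhibits Notch, averaged 6.53 ± 1.8 CPM in C2, against a median of 32.1 CPM (log2 fold change -1.88 ± 0.34, edgeR adjusted p = 7.94e-06), and kuz, the protease that cleaves Notch, 34 ± 2.29 CPM and 85.1 CPM (log2 fold change -1.49 ± 0.14, edgeR adjusted p = 2.51e-12). The remaining higher members, Ser, fng, E(spl)mgamma-HLH and E(spl)mdelta-HLH, were at 0.303 to 3.15 CPM in C2.

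**Figure D5:**
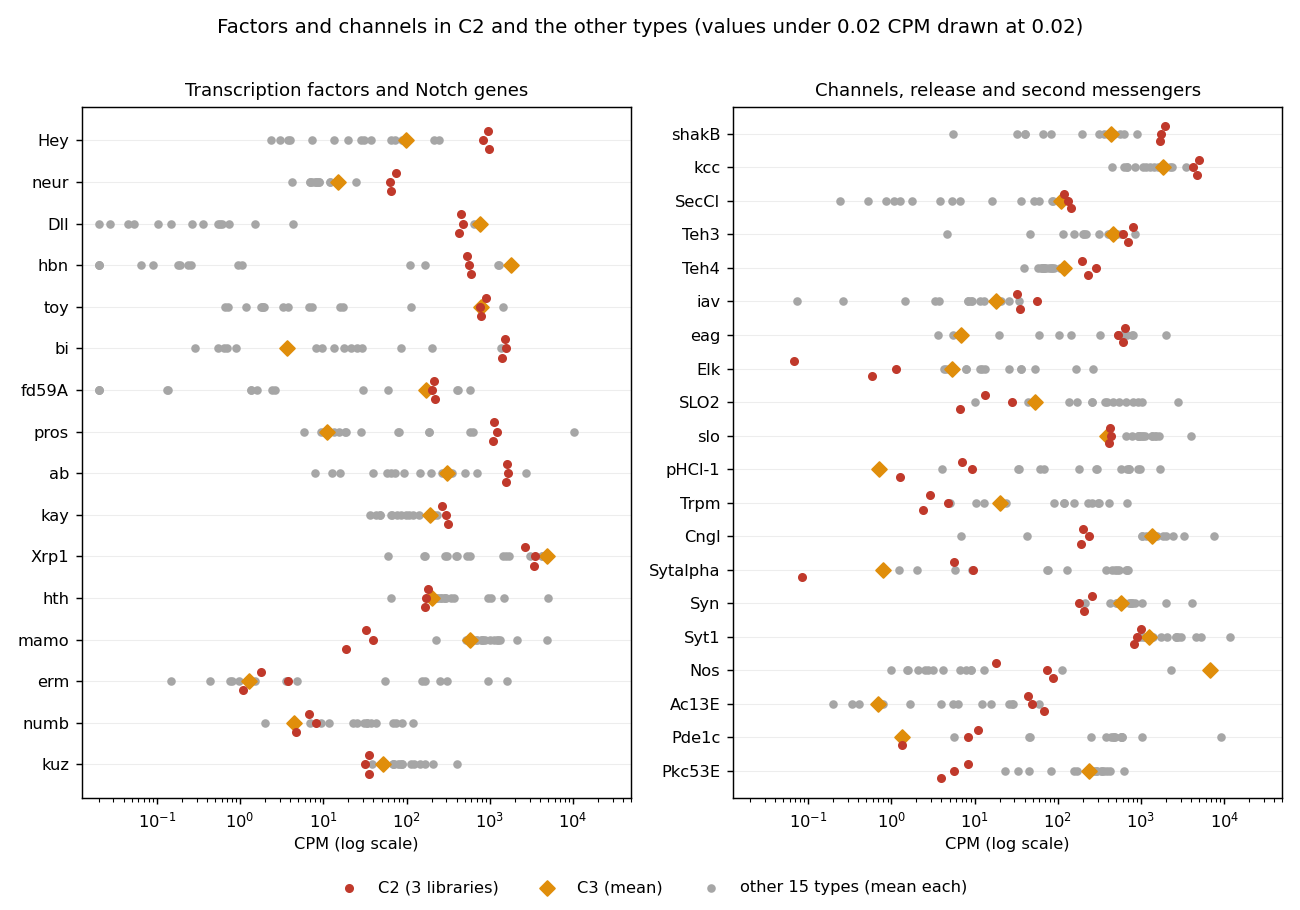
Levels of named factors, Notch genes, channels and second messenger genes in CPM on a log axis; red points are the 3 C2 libraries, diamonds the C3 mean and grey points the means of the other 15 types. C2 and C3 are both high for Dll, hbn and toy, C2 lies far from C3 for bi, pros, eag and Nos, and below all types for mamo, at 18.8 to 39.4 CPM, and Pkc53E.

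Of 21 genes of the active zone and vesicle release, 0 were higher and 3 lower (median log2 -0.59). Sytalpha, a synaptotagmin, was at 0.0838, 9.58 and 5.66 CPM in C2, against a median of 254 CPM and 0.791 CPM in C3 (log2 fold change -3.82 ± 0.71, edgeR adjusted p = 2.26e-05). Syn, synapsin, averaged 215 ± 40.9 CPM in C2, against a median of 676 CPM, and Syt1, the calcium sensor of fast release, 906 ± 83.4 CPM and 1883 CPM. brp, the active zone scaffold, averaged 2728 ± 158 CPM in C2, against a median of 2164 CPM.

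Second messenger genes were called in both directions, with 8 higher and 8 lower of 30 tested by edgeR, and 5 and 9 by limma (median log2 -0.18). Nos, nitric oxide synthase, was at 88.5, 74.9 and 18.1 CPM in C2, against a median of 5.49 CPM and 6666 ± 939.7 CPM in C3. Library 3 was the lowest of the C2 libraries, and all lay far below C3. Ac13E, an adenylyl cyclase, was at 67.9, 48.7 and 44.1 CPM in C2, against a median of 4.73 CPM and 0.70 CPM in C3 (log2 fold change 3.91 ± 0.33, edgeR adjusted p = 1.52e-13). Pka-R2, a regulatory subunit of protein kinase A, averaged 633 ± 41.4 CPM in C2, against a median of 245 CPM, and Pde8, a phosphodiesterase, 67 ± 15.5 CPM and 23.6 CPM. Pde1c was at 1.34, 8.37 and 11.1 CPM in C2, against a median of 467 CPM (log2 fold change -5.06 ± 0.50, edgeR adjusted p = 2.38e-11), and Pkc53E, a protein kinase C, at 3.9, 5.73 and 8.46 CPM in C2, against a median of 279 CPM (log2 fold change -4.93 ± 0.23, edgeR adjusted p = 1.20e-23). Pkc53E was lower than each of the 16 types singly. dnc, the Dunce phosphodiesterase, averaged 295 ± 17.7 CPM in C2, against a median of 679 CPM, norpA, phospholipase C, 144 ± 11.5 CPM and 435 CPM, and Gyc88E, a guanylyl cyclase, 5.55 ± 2.26 CPM and 13.8 CPM, all lower.

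Among 9 activity-regulated genes, kay, the fly Fos, alone was higher, at 313, 294 and 269 CPM in C2, against a median of 91.4 CPM (log2 fold change 1.64 ± 0.17, edgeR adjusted p = 2.60e-11). Hr38 averaged 431 ± 425 CPM in C2, 2965 ± 528 CPM in C3 and a median of 900.5 CPM, lower by limma alone. Of 11 clock genes, 4 were higher and 1 lower, among them per with 55.3 ± 10.9 CPM in C2, against a median of 26.9 CPM, and Pdp1 with 416 ± 23.8 CPM in C2, against a median of 870.1 CPM, lower. Xrp1, a stress-response factor, was at 3419, 3534 and 2647 CPM in C2, against 4928 CPM in C3, a median of 554 CPM over the types and 201 CPM in sorted neurons (log2 fold change 2.12 ± 0.17, edgeR adjusted p = 1.84e-14). It was the stress gene with the largest difference of 3 higher among 17 tested, the others being Hsp70Bb with 153 ± 23.5 CPM in C2 and Hsp60A with 929.8 ± 34.5 CPM in C2, against medians of 83.3 and 595 CPM. Without T2 the difference of Hsp60A was 0.581 and no longer called.

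Of the 550 genes lower in C2 with a mean of at least 20 CPM in the other types, 56 had every C2 library below every other library, and the 10 of these with the largest differences averaged between 0.417 and 30.3 CPM in C2. CG12672 was at 0.755, 0.393 and 0.102 CPM in C2, against a median of 17.9 CPM and 769 CPM in Lawf2 (log2 fold change -5.65 ± 0.40, edgeR adjusted p = 1.23e-16). app, a palmitoyltransferase of planar polarity, was at 0.335, 1.26 and 4.57 CPM in C2, against a median of 84.6 CPM (log2 fold change -5.57 ± 0.42, edgeR adjusted p = 1.44e-15). CG1090, an exchanger of the sodium-calcium family, was at 7.63, 7.3 and 6.89 CPM in C2, against a median of 269 CPM and 108 CPM in Lawf1 as the lowest other type (log2 fold change -5.24 ± 0.31, edgeR adjusted p = 1.48e-19). CG32206 averaged 3.65 ± 1.27 CPM in C2, against a median of 131 CPM, lncRNA:CR44922 3.62 ± 2.5 CPM and 123 CPM, and Haspin, a histone kinase, 2.27 ± 0.921 CPM and 41.1 CPM. FBgn0028906, which has no symbol in the tables used here, was at 0.713, 1.26 and 1.33 CPM in C2, against a median of 21.6 CPM.

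C2 and C3 were close as whole profiles. Over the 12569 tested genes, the correlation of log2(CPM + 1) of the type means was 0.956 between C2 and C3, 0.923 for Dm2 and for Lawf2 and 0.747 for T2, as a description over genes that share libraries. Against C3, 516 genes (4.11%) were higher and 474 (3.77%) lower in C2, and limma gave 830 and 650. The C3 libraries are also part of the 16-type mean, and 343 of the higher and 203 of the lower genes were called the same way in both comparisons. With RLE in place of TMM scaling the median difference to C3, 0.01 on the log2 scale, moved by 0.11.

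The largest differences from C3 ran in both directions. Sr-CI had no read in C3 and was at least 1344-fold higher in C2 (against 3 reads over the C3 libraries). CG42390 was at least 677-fold and p-cup at least 677-fold higher, though DESeq2 did not call p-cup (adjusted p = 0.0817). asRNA:CR44106 was at least 1677-fold higher, and 83.5% of its exon bases are shared with CG31191, which was at 172, 154 and 254 CPM in C2, against 0.397, 0.365 and 0.179 CPM in C3. CG15117 averaged 202 ± 23.3 CPM in C2 and 0.0657 CPM in C3, CG31345 111 ± 6.9 CPM in C2 and 0.128 CPM in C3. Below C3, Nos was joined by dan, a nuclear factor of eye development, with 0.587, 1.34 and 0 CPM in C2, against 95.3, 82.2 and 75.1 CPM in C3 (log2 fold change -7.04 ± 1.37, edgeR adjusted p = 0.000403). beat-VII was at 17.1, 8.37 and 6.72 CPM in C2, against 1239, 1264 and 1315 CPM in C3 (log2 fold change -6.89 ± 0.63, edgeR adjusted p = 1.87e-11). Sidpn, a basic helix-loop-helix factor, averaged 0.369 ± 0.517 CPM in C2 and 71.5 ± 1.96 CPM in C3, Npc2a, a sterol-binding protein, 1.18 ± 0.892 CPM in C2 and 120.4 ± 6.31 CPM in C3, CG32982 2.67 ± 2.06 CPM in C2 and 309.6 CPM in C3, and CG31869 0.076 ± 0.0669 CPM in C2 and 37.4 ± 10.8 CPM in C3.

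Peptide receptors and surface proteins differed from C3 in both directions. Of the 39 peptide receptors tested, 10 were higher and 5 lower in C2 than in C3, beside 4.11% and 3.77% of all genes tested. The counts were 11 and 7 of 32 Dpr and DIP genes, 9 and 8 of 21 Beat and Side genes, and 9 and 5 of 46 other adhesion genes. Of the genes for the transmitter GABA, 0 were called in either direction, and Gad1 itself, at -1.76 on the log2 scale, missed the threshold (edgeR adjusted p = 0.166). limma gave -1.75 and called it lower (adjusted p = 1.10e-09).

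Markers of other cells were looked up in C2 as a check on the sort, and their part in the results was not tested. Glial repo averaged 2.51 ± 0.833 CPM in C2, against a median of 2.76 CPM, with alrm at 5.91 ± 3.1 CPM and 5.16 CPM. Of 19 glia markers, 8 were higher and 1 lower, moody at 18.8 ± 3.18 CPM and nrv2 at 228 ± 36.6 CPM among the higher, and the list summed to 423 CPM in C2, against 114 to 32383 CPM over the other types. Of 23 hemocyte markers, 9 were higher and 1 lower, with NimC1 at 0.014 ± 0.0242 CPM and Hml at 1.46 ± 0.889 CPM beside Sr-CI, and a sum of 642 CPM in C2, against 256 to 1073 CPM. Of 9 trachea markers, 5 were higher and 1 lower, with serp, a chitin deacetylase, at 172 ± 38.7 CPM in C2, 159 CPM in C3 and 0.318 CPM in sorted neurons, and a sum of 222 CPM in C2, against 2.52 to 527 CPM. Of 9 fat body markers, 3 were higher and 0 lower, Lsp1beta among the higher with 88.5 ± 35.1 CPM, while Yp1 and Lsp2 averaged 0.104 ± 0.147 CPM and 0.0507 ± 0.0446 CPM in C2, and the sum was 101 CPM in C2, against 3.46 to 36.2 CPM. Muscle markers had 6 higher and 1 lower of 16, with Mhc at 0.102 ± 0.177 CPM in C2 and a sum of 136 CPM in C2, against 99.1 to 274 CPM, and photoreceptor markers 6 higher and 3 lower of 21, with ninaE at 0.762 ± 0.64 CPM in C2 and a sum of 880.4 CPM in C2, against 795 to 6264 CPM. Of 16 pan-neuronal genes, 2 were higher and 2 lower, and elav averaged 438 ± 24.4 CPM in C2, against a median of 525 CPM.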

How the data were processed

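Gene counts of 57 libraries from 19 groups, with 3 libraries each, were analysed as deposited. The authors made the raw read counts per gene with Trimmomatic 0.32, STAR 2.5.2 and HTSeq 0.6.1 on build BDGP6, per the submitters' processing notes. Per the labels' protocols, cDNA was amplified with SMART-Seq v4 from sorted cells and made into Nextera XT libraries, a route that does not mark strand. Whether HTSeq counted by strand is not given in the sources used here, and the rows that name no gene, of which reads in no annotated feature made 40.5% to 49.2% of a library's total, were left out of library sizes and tests.

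From the counts, genes were filtered with filterByExpr, scaled by TMM and tested with edgeR 4.0.16 (R 4.3.3), with robust quasi-likelihood fits over all groups. The coefficient of C2 was set against the mean of those of the other 16 single types, and against C3 alone. A call is a Benjamini-Hochberg adjusted p under 0.05 over all 12569 genes tested with a log2 change of at least 1. limma 3.58.1 on voom values and the tests against single types were added after seeing the data, and DESeq2 1.42.0 was also run. The code was tested on simulated data. Chromosome positions and exon overlaps are from Ensembl release 115.

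The members and lists were chosen with earlier results of these data known. Genes named are the markers, the 15 highest and 10 lowest calls by fold among genes of at least 20 CPM with no overlap of libraries, up to 5 per list and direction, the 8 most different each way from C3, and genes that a sentence singles out, which were chosen after their values were seen. Listed genes without a match in the count table were not analysed here. Over all pairs of the 17 types, libraries with the same number did not deviate together (median correlation -0.001). A median over all pairs cannot show whether the numbers pair some of the groups. Sequencing depth limits what a level of 0 shows, and T2 is the shallowest type.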

Additional observations from a re-analysis of the deposited data

How the results depend on the processing

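The numbers called moved most when a call was required against each type singly. Genes lower in C2 than in the mean of the other types numbered 780, and 1190 with limma voom, 1744 with no minimum fold change and 27 when required against each type singly. Genes higher numbered 2985, and 853 with at least 20 CPM and 45 against each type singly. Against C3, 516 were higher, and 830 with limma voom and 289 with at least 20 CPM. limma voom, the minimum of 20 CPM and the single-type tests were chosen after seeing the data.

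Leaving out 1 C2 library gave 2792 to 2944 genes higher and 694 to 772 lower. Leaving out 1 library of C2 or C3 gave 373 to 468 higher and 408 to 460 lower against C3. Without 1 C2 library, genes above every library of the other types numbered 289 to 349 and those below 81 to 102, beside 251 and 70 with all. That requirement is easier to meet with fewer C2 libraries, so these ranges do not measure stability. A replicate block gave 2912 higher and 776 lower, and 513 and 476 against C3, so that no count moved by over 1.5 times. Whether the library numbers pair some of the groups is not known. DESeq2 called 2020 higher and 903 lower.

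Against the other 16 types the log2 difference of CG31869 was 0.64, without a call, and -0.48 with limma voom, and the cause was not tested. dan, higher by edgeR, was not called by limma voom or DESeq2, nor without C2 library 2. CG9581 fell under the 2-fold limit without T2.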
